A study of Mus musculus with 12 samples.

Results

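Alveolar macrophages taken 7 days after removal of 70% of the liver were compared with those taken 3 days after it, over every probe set of the array that is not a control. The comparison rested on 3 arrays of day 7 and 3 of day 3, out of 12 in the series, and on 22206 of 28846 deposited probe sets. The animals were male C57 Black mice, and the cells were pulled from the lung with magnetic beads carrying an antibody to Siglec-F, a surface lectin of mouse alveolar macrophages that eosinophils also carry. The other groups, which entered the shared estimate of spread, were 3 arrays of mice with an intact liver and 3 of mice 1 day after resection. All groups were wild-type as far as the labels say, and the only treatment taken to apply was the resection. The labels' protocol text also names co-cultivation with Ito cells and other cells, and HGF and MCSF. Those lines appeared to belong to another series and were not used. The labels call the 3 arrays of a group biological replicates and do not say how many animals stand behind each, so the spread is that between these samples. The purity of the bead-sorted cells was not given in the sources used here.

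Values are log2 signals after RMA, which corrects background, brings the arrays to 1 distribution and summarises the probes of a set. A difference of 1 on this scale is a 2-fold difference in signal, and each difference below is the mean of day 7 minus the mean of day 3, with its standard error (SE) from limma. Signals of different genes cannot be ranked against each other on this scale.

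Adult alveolar macrophages are long-lived cells of the air spaces that clear surfactant and particles and keep their numbers largely by dividing in place. A dividing cell must make a new set of histones, the proteins on which DNA is wound, while it copies its DNA. Most of these are made from replication-dependent histone genes, which lie in clusters, have no introns and give mRNAs that end in a stem-loop in place of a poly(A) tail; these mRNAs are made and destroyed in step with S phase. Replication-independent histones such as H3.3 and H2A.Z are made from polyadenylated mRNAs throughout the cell cycle.

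No single probe set passed. With limma and Benjamini-Hochberg adjustment over 22206 probe sets, 0 reached an adjusted p under 0.05, and the smallest adjusted p was 0.114. At an unadjusted p under 0.05 there were 1138 probe sets, against 1110.3 that chance alone would give. Of these, 450 were higher at day 7, which is 2.03% of all tested, and 688 were lower, which is 3.1%. The share of higher among them was 39.5%. It was 50.8% after quantile normalization was repeated and 56.4% after each array was centred on its median, so the balance of directions over the whole array has no settled sign. The median difference over all probe sets was -0.01. All 3 day 7 arrays lay above all 3 day 3 arrays for 1075 probe sets (4.84%) and below them for 1263 (5.69%).

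The arrays differed in quality. The area under the curve that separates exon from intron control probes ran from 0.832 to 0.880 over the 6 arrays. Among these it was lowest for replicate 1 of day 3 and replicate 2 of day 7. Replicate 2 of day 1, which entered the shared estimate of spread, stood at 0.809, the lowest of the series. With that array left out, limma gave 1649 probe sets at an unadjusted p under 0.05, in place of 1138. The smallest adjusted p was then 0.058, and 0 probe sets passed. The labelling control dap stood at 6.88 in replicate 1 of day 3 and at 7.77 and 6.47 in replicates 2 and 3 of day 7, and at no more than 2.40 in any intact array. The arrays that carried dap were 1 of day 3 and 2 of day 7, and those that did not were 2 of day 3 and 1 of day 7, so a difference within either kind rests on 1 array on one side. Such differences are given beside the results below where they bear on them. The mean over arrays of the 95th percentile of the intron controls, 5.297, served as a background level, and 5461 probe sets had a group mean above it at day 3 or day 7.

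The cells kept the markers of alveolar macrophages on both days. Siglecf, which encodes the sorted antigen, stood at 8.38, 8.58 and 8.67 at day 3 and at 8.89, 8.54 and 8.77 at day 7. Pparg, the nuclear receptor that directs the alveolar macrophage fate, was 8.65 ± 0.15 (SD, n = 3) at day 3 and 8.81 ± 0.22 at day 7. Mrc1, the mannose receptor, and Spi1, the myeloid factor PU.1, overlapped between days too, with differences of -0.14 ± 0.21 and -0.09 ± 0.18 (SE). All 26 measured identity markers were above background. Of these, 19 were higher and 7 lower at day 7 (73.1% higher, against 47.9% of all probe sets). The median was 0.16 (0.06 to 0.27 when any 1 array was left out). Where 2.03% of all probe sets had an unadjusted p under 0.05 in the higher direction, 2 of the 26 markers (7.69%) did.

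Marco was one of them. It encodes a scavenger receptor for bacteria and particles, and its levels were 6.91, 6.63 and 7.00 at day 3 and 7.97, 7.47 and 8.38 at day 7. All day 7 arrays were above all day 3 arrays. The difference was 1.09 ± 0.31, with an unadjusted p of 0.0036 and an adjusted p of 0.687. It was 1.02 within the arrays that carried dap and 1.15 within those that did not. Csf2rb, the shared chain of the GM-CSF receptor that alveolar macrophages need, was higher by 0.59 ± 0.22 without overlap (adjusted p = 0.934), and by 0.39 without replicate 1 of day 3.

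Replication-dependent histone genes were the gene group with the largest median difference among the 50 lists examined. Of 53 listed genes, 46 were measured, and 43 of these had a higher mean at day 7 (47.9% of all probe sets did). The median difference was 0.98, beside -0.01 over all probe sets, and single genes ran from -0.47 to 1.64. An unadjusted p under 0.05 in the higher direction was reached by 36 members (78.3%, against 2.03% of all probe sets), and 35 did not overlap between the days (against 4.84%). None passed after adjustment over all probe sets. The mean was above background at day 3 for 25 members, and 10 more were above it at day 7 alone. Of the 15 leading higher genes named by the rule, 14 were replication-dependent histones. The histone genes of a class are close in sequence, so a probe set can read more than 1 of them, and H3c14 and H3c15 carried identical values. The 46 probe sets held 45 distinct profiles, and they are not 46 independent measurements.

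The sequences below are the 120 bases before the RefSeq transcription start (GRCm38.p6, first listed start of each gene), 5′ to 3′ on the gene's strand. They are shown because histone genes are regulated from short promoter elements of known kinds. Those of genes that were higher at day 7 can be set beside those of genes that were not. Capitals mark every match, on either strand, to 6 short sequences. These are CCAAT, the binding sequence of NF-Y, TATAAA, the TATA box, and GGTCC, the core of an H4 promoter element. The others are ATTTGCAT, the octamer bound by OCT1, TTTCGCGC, an E2F site, and TTTGAA, the core of the CHR element of cell cycle promoters. The first 6 genes had a higher mean at day 7, the next pair did not, and the last is a mitotic cyclin gene with a higher level at day 7. Of the first 6, H2bc14 was not among the histone genes with the smallest p. Its unadjusted p from limma was 0.0246, its arrays overlapped between the days, and both its means were below background.
H2ac10 (chr13:23533755-23533874, plus strand): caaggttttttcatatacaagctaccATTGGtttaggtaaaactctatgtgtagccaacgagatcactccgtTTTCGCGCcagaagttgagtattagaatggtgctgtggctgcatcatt
H2bc14 (chr13:21721924-21722043, plus strand): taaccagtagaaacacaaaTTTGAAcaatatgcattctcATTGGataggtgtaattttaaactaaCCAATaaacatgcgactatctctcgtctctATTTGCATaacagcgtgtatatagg
H3c6 (chr13:23562386-23562505, minus strand): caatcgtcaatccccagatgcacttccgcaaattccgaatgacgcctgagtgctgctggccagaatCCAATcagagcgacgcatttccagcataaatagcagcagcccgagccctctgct
H4c11 (chr13:21734914-21735033, plus strand): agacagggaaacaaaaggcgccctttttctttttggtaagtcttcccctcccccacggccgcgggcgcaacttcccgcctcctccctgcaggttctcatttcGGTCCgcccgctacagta
H4c12 (chr13:21750554-21750673, minus strand): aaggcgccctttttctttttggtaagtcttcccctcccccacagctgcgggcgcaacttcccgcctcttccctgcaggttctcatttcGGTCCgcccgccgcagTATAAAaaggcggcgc
H1f3 (chr13:23554912-23555031, plus strand): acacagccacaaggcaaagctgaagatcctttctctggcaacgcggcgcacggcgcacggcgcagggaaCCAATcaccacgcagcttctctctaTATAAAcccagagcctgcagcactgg
H1f2 (chr13:23738687-23738806, plus strand): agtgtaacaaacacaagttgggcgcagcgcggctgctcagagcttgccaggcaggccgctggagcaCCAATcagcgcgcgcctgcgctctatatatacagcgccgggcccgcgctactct
H4c9 (chr13:22041363-22041482, minus strand): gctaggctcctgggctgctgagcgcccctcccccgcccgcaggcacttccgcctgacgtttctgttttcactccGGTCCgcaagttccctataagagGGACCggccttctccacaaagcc
Ccnb2 (chr9:70421555-70421674, minus strand): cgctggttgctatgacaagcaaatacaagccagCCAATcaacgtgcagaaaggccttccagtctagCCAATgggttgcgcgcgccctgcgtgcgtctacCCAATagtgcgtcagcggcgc

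A promoter was listed for 42 of the 46 measured histone genes; H2bc4, H3c1, H3c7 and H4c14 had none. Within the 250 bases before the start, CCAAT occurred in 33 of the 42, or 78.6%, against 34.5% of 27025 promoters of the same length. TATAAA occurred in 20 of 42 (47.6%, against 13% of all) and the octamer in 9 of 42 (21.4%, against 1.61%), 4 of them H2A and 5 H2B genes. Several H2A and H2B genes lie head to head and share upstream DNA, so those matches are not independent. GGTCC was found in 18 of 42 (42.9%, against 39.7% of all), and in 9 of 10 H4 promoters. The E2F site was found in 6 of 42 (14.3%, against 0.255%), H2ac10 among them. TTTGAA was found in 17 of 42 (40.5%, against 16.3% of all).

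The size of the difference between days was described by element, with no test. The median difference was 1.03 in the 33 genes with CCAAT and 1.02 in the 9 without it, and 1.01 with TATAAA against 1.02 without. Genes with the octamer had a median of 0.78 against 1.07 without it, and 5 of those 9 were H2B genes. Genes with TTTGAA had a median of 0.78 against 1.06 without it, and 8 of those 17 were H2B genes, the core class with the smallest median. H4c9, which was not higher at day 7, had GGTCC matches like H4c11 and H4c12, and H1f2 had a CCAAT box like H1f3. A match describes letters in a window and not a bound factor.

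Among the core histones, H2A genes had the largest median, 1.16, and 10 of 10 were higher at day 7. H2ac10 had the smallest unadjusted p of all probe sets, 1.25e-05. Its levels were 6.22, 6.68 and 6.65 at day 3 and 7.94, 8.07 and 7.57 at day 7, so that the days did not overlap and the gap between them was wider than the range within either. The difference was 1.34 ± 0.19, or 2.53-fold, with an adjusted p of 0.114. Within the arrays that carried dap it was 1.60, and within the others 1.27. H2ac15 had the largest difference of any histone gene, 1.64 ± 0.42. H2ac6, at 4.51, 4.46 and 4.19 against 4.51, 4.99 and 4.31, was below background and overlapped.

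H3 genes had a median of 1.07, with 10 of 10 higher and no overlap in any of the 10. H3c6 stood at 5.04, 5.89 and 5.74 at day 3 and at 7.68, 7.23 and 6.66 at day 7. Its difference of 1.63 ± 0.29 was 3.10-fold (adjusted p = 0.208), and it was 1.90 and 1.86 within the arrays with and without dap. H3c13 and the pair H3c14 and H3c15 were higher by 1.07 ± 0.18 and 1.18 ± 0.19. H3c1, at a level of 1.98 against 2.11, was far below background, and its lack of overlap is a difference of 0.13.

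H4 genes, whose copies encode the same protein, had a median of 1.02, and 10 of 11 were higher. H4c11 stood at 7.68, 7.64 and 7.45 at day 3 and at 8.61, 8.67 and 8.52 at day 7. The days were apart by more than the range within either, with a difference of 1.02 ± 0.15 (adjusted p = 0.114) and values of 0.92 and 1.07 within the arrays with and without dap. H4c12 was higher by 1.19 ± 0.21 (1.59 and 0.96 within the arrays with and without dap) and H4c1 by 1.31 ± 0.23. H4c9 was the exception, at 4.89, 4.34 and 4.51 against 4.68, 4.34 and 4.40, which overlapped below background.

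H2B genes had the smallest median of the core histone classes, 0.66, with 10 of 11 higher, 6 of 11 at an unadjusted p under 0.05 and 4 of 11 free of overlap. H2bc7 and H2bc12 were higher by 0.92 ± 0.38 and 0.80 ± 0.31. H2bc14, whose promoter carries the octamer, stood at 3.89, 4.93 and 4.73 against 5.58, 5.58 and 4.73, with the lowest day 7 array inside the range of day 3. H2bc4 was the only H2B gene with a lower mean at day 7, at 7.57, 8.87 and 8.29 against 7.98, 7.88 and 7.47, which overlapped.

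H1 genes encode the linker histones that sit outside the nucleosome core, and 3 of 4 were higher. H1f3 stood at 4.19, 4.43 and 4.14 at day 3 and at 5.34, 5.74 and 5.41 at day 7, a difference of 1.24 ± 0.19 (adjusted p = 0.114), and 1.38 and 1.05 within the arrays with and without dap. Its day 3 mean of 4.26 was below background, so it was among the leading genes only through its day 7 level. H1f1 was higher by 1.28 ± 0.25, from levels below background. H1f2 was not, at 6.41, 7.25 and 7.26 against 6.38, 6.75 and 6.66. H1f2 and H2bc4 are known for giving polyadenylated transcripts as well as stem-loop ones. Their differences of -0.37 ± 0.42 and -0.47 ± 0.44 were within the error.

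**Figure D1:**
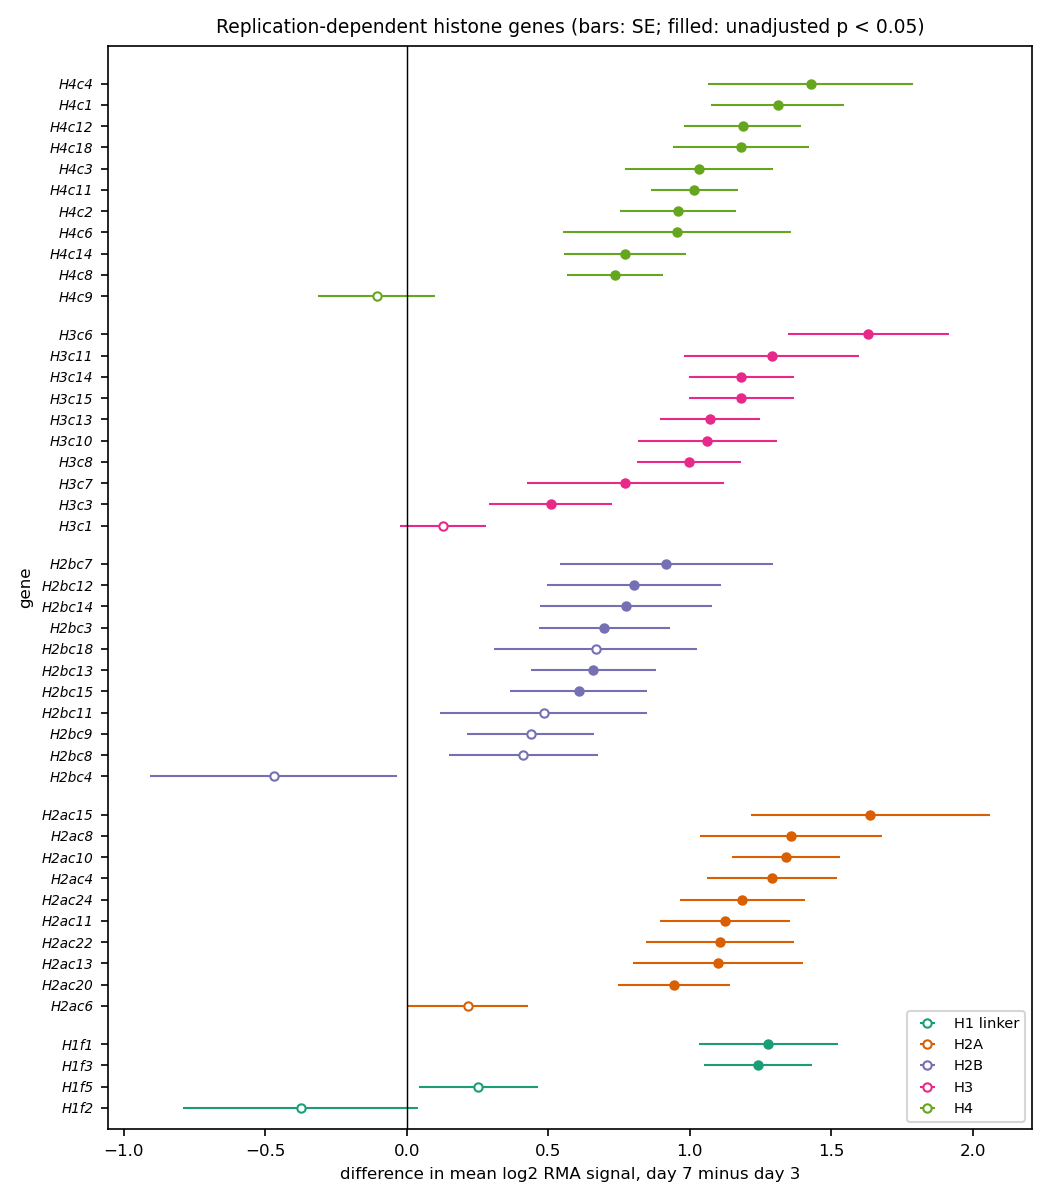
Difference in mean log2 signal, day 7 minus day 3, for the 46 measured replication-dependent histone genes by class (points; bars are the SE, and filled points have an unadjusted p under 0.05). All but H1f2, H2bc4 and H4c9 lie above 0, and the H2B genes have a median of 0.66, against 1.16 for H2A, 1.07 for H3 and 1.02 for H4.

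The direction was the same for the genes of both chromosomes. Of 40 measured genes on chromosome 13, 37 were higher with a median of 0.98, and of 6 on chromosome 3 all 6 were higher with a median of 1.01. The chromosome 3 genes include H3c14 and H3c15, whose values were identical. A probe set can also read genes of its class on the other chromosome. These counts therefore cannot show whether the clusters differed separately. The other groups give a reference for both days. The list's mean level was 6.36 ± 0.06 (SD, n = 3) in intact mice, 5.84 ± 0.36 at day 1, 5.56 ± 0.24 at day 3 and 6.43 ± 0.27 at day 7. The day 3 mean was below the intact mean for 45 of 46 genes and the day 7 mean for 17 of 46. The day 3 mean was below the day 1 mean for 39 of 46, but the arrays of these days overlapped: replicate 2 of day 1 had a list mean of 5.42. That array had the weakest exon to intron separation of the series. The other day 1 arrays had list means of 6.02 and 6.07, above every day 3 array, so the overlap rests on replicate 2. At day 7 the 3 arrays had list means of 6.64, 6.52 and 6.12, all above the 5.30, 5.75 and 5.62 of day 3. The list's median was 1.13 within the arrays that carried dap and 1.06 within the others, and between 0.92 and 1.16 when any 1 array was left out.

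**Figure D2:**
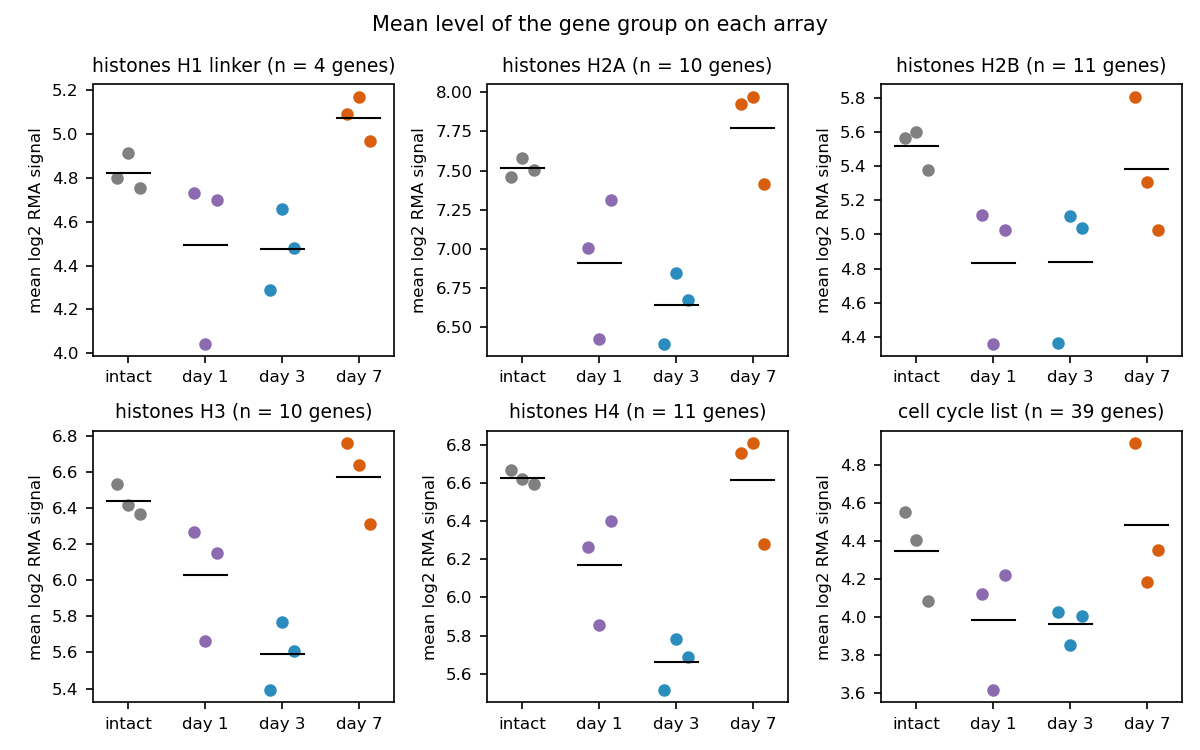
Mean log2 signal of the measured genes of each histone class and of the cell cycle list on each of the 12 arrays (points, by group; lines are group means; each panel has its own axis, which does not start at 0). The day 3 arrays lie below the day 7 arrays for H1, H2A, H3, H4 and the cell cycle list, while for H2B the lowest day 7 array (5.03) lies inside the range of day 3.

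Replication-independent histones as a list did not share a difference of this size. H3f3a and H3f3b, which encode H3.3, were each lower by 0.27, with standard errors of 0.23 and 0.25. H2az1, which encodes H2A.Z, was lower by 0.27 ± 0.21, and H2az2 by 0.37 ± 0.33. All other members had a higher mean at day 7, among them H2aj by 0.46 ± 0.23 with overlap. The list of 10 had a median of 0.12 (-0.04 to 0.21 when any 1 array was left out). Of the 10, 1 had an unadjusted p under 0.05 in the higher direction (10%, against 2.03% of all probe sets). That gene was H2ax, whose product marks DNA breaks and whose gene also yields a stem-loop mRNA. It stood at 5.89, 6.0 and 6.19 at day 3 and at 7.32, 6.92 and 7.19 at day 7, without overlap, and its difference of 1.11 ± 0.32 was like those of the replication-dependent genes. Genes for making and processing histone mRNA, listed together with histone chaperone genes, had a median of 0.03, with 10 of 19 higher. Among them Slbp, which binds the stem-loop, was 6.93 at day 3 and 6.96 at day 7, and Npat, the cyclin E target that switches on histone genes, differed by 0.32 ± 0.34. Lsm11, a part of the U7 particle that cuts histone mRNA, was lower by 0.61 ± 0.23 (unadjusted p = 0.0193) at levels below background. These lists and those of kinetochore genes, E2F factors and CDK inhibitors were drawn up after the histone values had been seen.

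Cell cycle genes were also higher at day 7, by less and mostly at low signal. Of 39 measured, 35 had a higher mean, 15 had an unadjusted p under 0.05 in that direction (38.5%, against 2.03% of all) and 15 did not overlap (against 4.84%). The median was 0.50. No member passed after adjustment. Of the 39, 4 were above background at day 3 and 6 more at day 7 alone. In bulk RNA, fewer cells of a kind and less RNA in each of them cannot be told apart, so these levels do not give a number of dividing cells.

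Genes of G2 phase and mitosis had a median of 0.66, with 21 of 23 higher. Mki67, the proliferation marker Ki-67, stood at 7.28, 5.93 and 6.02 at day 3 and at 7.88, 7.55 and 7.49 at day 7. Every day 7 array was above every day 3 array, although replicate 1 of day 3 was more than 1 unit above the other 2. The difference was 1.22 ± 0.34 (adjusted p = 0.687), 0.23 within the arrays that carried dap and 1.90 within the others. Ccnb2, a B-type cyclin that drives mitosis, stood at 4.48, 5.05 and 4.91 against 6.12, 5.56 and 5.46, higher by 0.90 ± 0.22 without overlap. Its promoter, printed above, holds 3 CCAAT boxes. Kif23, a kinesin of the central spindle, was at 6.03, 5.65 and 5.46 against 6.54, 6.31 and 6.43, higher by 0.72 ± 0.19. Prc1, which bundles the same spindle, was higher by 1.16 ± 0.24 (adjusted p = 0.339), from levels below background.

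Genes of G1 and S phase had a median of 0.41, with 14 of 16 higher. Rrm2, the regulated subunit of the enzyme that makes deoxynucleotides, stood at 4.75, 4.50 and 3.92 against 6.01, 5.21 and 5.39, higher by 1.15 ± 0.49. Mcm6, a subunit of the replicative helicase, was higher by 0.76 ± 0.34. Pcna, the sliding clamp of DNA polymerases, overlapped at 9.58, 9.48 and 9.50 against 9.54, 9.26 and 9.19. Tyms, which makes thymidylate, differed by -0.13 ± 0.24. Of 31 cell cycle genes with a listed promoter, 24 held CCAAT (77.4%, against 34.5% of all), 0 held TATAAA and 8 held TTTGAA.

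**Figure D3:**
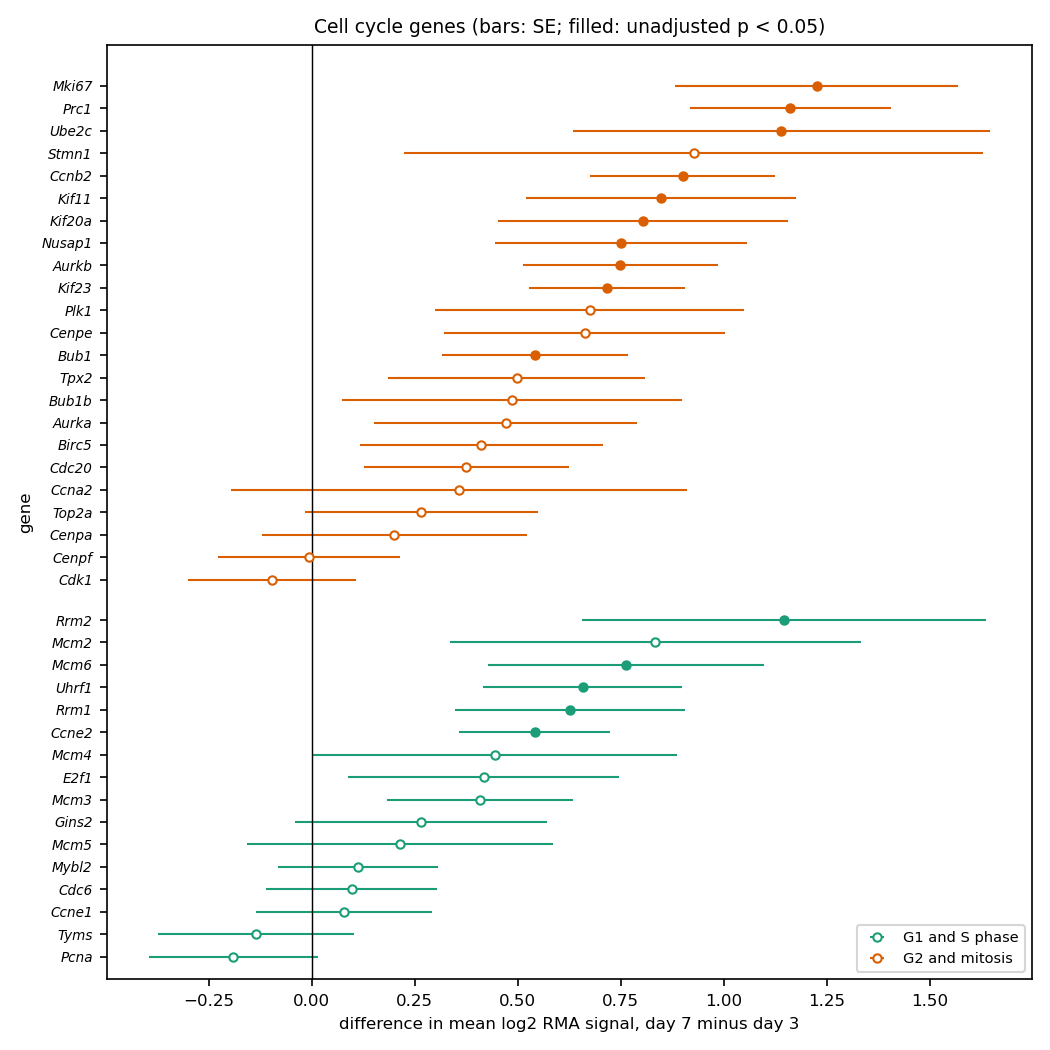
Difference in mean log2 signal, day 7 minus day 3, for the 39 measured cell cycle genes by phase (points; bars are the SE, and filled points have an unadjusted p under 0.05). Pcna, Tyms, Cdk1 and Cenpf lie at or below 0, and Mki67, Prc1, Rrm2 and Ube2c lie above 1.

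Of 43 measured genes of the kinetochore, condensin and the mitotic motors, 40 were higher, against 47.9% of all probe sets. An unadjusted p under 0.05 in that direction was reached by 11 (against 2.03% of all), and 5 of the 43 were above background. The median was 0.41, and the list was drawn up after the histone values had been seen. Ncapd3, a subunit of condensin II, was the only leading higher gene that is not a histone. It stood at 5.56, 5.49 and 5.56 at day 3 and at 6.85, 6.74 and 6.29 at day 7, a difference of 1.09 ± 0.22 (adjusted p = 0.262). Kif15, a spindle kinesin, and Nuf2, a kinetochore protein, were higher by 1.44 ± 0.28 and 1.07 ± 0.20, both from levels below background. E2f8, an E2F repressor expressed in S phase, was higher by 1.14 ± 0.26, also below background. The E2F list as a whole had a median of 0.06, with 9 of 16 higher. Of the CDK inhibitors, Cdkn1a, which encodes p21, differed by -0.12 ± 0.18, and 2 of 7 were higher.

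The cell cycle difference leaned on single arrays more than that of the histones. The median of 0.50 was 0.28 without replicate 1 of day 7, the array with the highest cell cycle mean (4.91, against 4.18 and 4.36 for the other 2). Within the arrays that carried dap it was 0.23, with 28 of 39 higher, and within the others it was 0.99, with 37 of 39 higher. The part of array quality in this result was not tested further.

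Markers of other cells that the sort could hold were set beside these groups. Neutrophil markers were higher for 25 of 31, with a median of 0.36, which was 0.21 without replicate 2 of day 3, 0.61 without replicate 3 of day 3 and 0.23 without replicate 2 of day 7, and the sum of their signals spanned 10047 to 16056 on the day 3 arrays and 12014 to 18722 on those of day 7. S100a8, the calprotectin subunit, stood at 9.41, 9.17 and 9.86 against 9.88, 10.29 and 9.28, which overlapped. The neutrophil precursor markers Mpo and Elane stood at 3.10 and 3.82 at day 3 and at 3.45 and 3.60 at day 7, below background on both days. T and NK cell markers had a median of -0.05, with summed signals of 337 to 401 and 318 to 407, and Cd3e stood at 2.93 and 2.73. B and plasma cell markers had a median of -0.03, with sums of 768 to 1024 and 845 to 1013. The part of neutrophil RNA in the histone and cell cycle differences was not tested.

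Eosinophils carry Siglec-F as well. Their markers were higher for 10 of 13, with a median of 0.25 and summed signals of 867 to 1541 on day 3 arrays and 1426 to 2047 on day 7 arrays. The median was 0.71 within the arrays that carried dap and -0.18 within the others, and 0.13 to 0.53 when any 1 array was left out. Ear6, an RNase of eosinophils and macrophages, stood at 6.45, 6.86 and 7.42 against 8.35, 8.38 and 7.45, just free of overlap, with a difference of 1.15 ± 0.31. Prg2, the major basic protein of eosinophil granules, overlapped at 4.75, 6.24 and 6.94 against 6.41, 8.51 and 6.83, and its difference of 1.27 was 0.64 without replicate 2 of day 7. Ccr3, the eotaxin receptor, and Il5ra, the IL-5 receptor, differed in opposite directions, by 0.56 ± 0.48 and -0.33 ± 0.28. Without 1 day 7 array these were as small as 0.02 (Ccr3, replicate 2) and -0.01 (Il5ra, replicate 1).

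Among the genes that were lower at day 7, Cdo1 stood apart. It encodes cysteine dioxygenase, which commits cysteine to taurine and sulphate. Its levels were 6.62, 7.11 and 6.54 at day 3 and 4.68, 4.28 and 4.14 at day 7. The lowest day 3 array was almost 2 units above the highest day 7 array. The difference was -2.39 ± 0.35, with an adjusted p of 0.114. The day 7 mean of 4.37 was below background, so no fold is given, and Cdo1 was among the leading genes through its day 3 level alone. It was -2.41 within the arrays that carried dap and -2.14 within the others. Intact arrays had a mean of 5.51 ± 0.59 (SD, n = 3), between those of the days.

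Cd63, a tetraspanin of late endosomes and secretory lysosomes, stood at 9.45, 9.60 and 9.23 at day 3 and at 8.43, 7.68 and 8.36 at day 7. The days did not overlap, and the difference was -1.27 ± 0.26 (adjusted p = 0.33). It was -1.43 and -0.99 within the arrays with and without dap. Other lysosomal genes did not share it in size: 23 of 33 members of that list were lower, with a median of -0.12 (-0.26 to 0.02 when any 1 array was left out). Ctss, the cathepsin that trims the invariant chain, was lower by 0.41 ± 0.19 (a difference of -0.25 without replicate 2 of day 7), and Asah1, which cleaves ceramide, by 0.47 ± 0.18, whereas Lamp1, a membrane protein of the lysosome, stood at 9.75 and 9.77.

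The other 13 leading lower genes had unadjusted p from 0.00111 to 0.00294 and adjusted p from 0.504 to 0.675. Sp3, a GC-box transcription factor, stood at 7.43, 6.82 and 6.75 against 6.07, 6.27 and 6.28. Its difference was -1.15 and -0.72 within the arrays with and without dap. Chd9, a chromatin remodeller, and Epc2, of a histone acetyltransferase complex, were lower by 1.02 ± 0.25 and 0.85 ± 0.21, both to day 7 means below background. Apobec1, a cytidine deaminase that edits mRNA, was lower by 0.89 ± 0.21, with -0.47 and -1.34 within the arrays with and without dap. Pspc1, a paraspeckle protein, was lower by 0.84 ± 0.22, and Lncpint, a long non-coding RNA induced by p53, by 0.80 ± 0.21. Without replicate 2 of day 7 the difference of Lncpint was -0.53. Bpifa1, a secreted protein of airway epithelium, was lower by 1.38 ± 0.35, from a level of 6.44 to 5.06, which is below background, with -0.80 and -1.33 within the arrays with and without dap.

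A set of genes was high in only 2 of the 3 day 3 arrays. Apoe, which carries lipid out of macrophages, stood at 8.61, 12.22 and 11.61 at day 3 and at 9.18, 9.07 and 9.10 at day 7. Replicates 2 and 3 of day 3 were over 2 units above every day 7 array, and replicate 1 was below all of them. The difference was -1.70 ± 0.66 (adjusted p = 0.935). It was -2.80 without replicate 1 of day 3, with an adjusted p of 0.0023, and -0.996 without replicate 2 of day 3. Within the arrays that carried dap, where replicate 1 is the only one of day 3, it was 0.47, and within the others -2.73. Over all alternatives its adjusted p ran from 0.00107 to 1.

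Mfge8, the bridge between apoptotic cells and phagocytes, had the same shape at 5.15, 8.45 and 7.48 against 4.61, 5.21 and 4.23. Its day 7 arrays and replicate 1 of day 3 were below background. Its difference was -2.34 ± 0.64 (unadjusted p = 0.00311, adjusted p = 0.676), and -3.28 without replicate 1 of day 3 (adjusted p = 0.0358). The adjusted p of Mfge8 ran from 0.00107 to 0.981 over the alternatives. Sdc1, the proteoglycan syndecan-1, stood at 3.19, 6.63 and 5.39 against 3.27, 2.85 and 3.41. It passed without replicate 1 of day 3 at -2.83 (adjusted p = 0.0156). Its day 7 arrays and replicate 1 of day 3 were below background, and it was chosen after its values were seen. Mmp2, gelatinase A, was at 4.45, 7.02 and 5.40 against 4.24, 3.27 and 3.55. Its difference of -1.94 ± 0.52 became -1.24 without replicate 2 of day 3, and its day 7 arrays were below background. Colec12, a scavenger receptor, and Ms4a7, a membrane protein of mature macrophages, were lower by 1.75 ± 0.50 and 1.42 ± 0.55, with replicate 1 again the lowest of day 3. The difference of Ms4a7 was -0.92 without replicate 2 of day 3. Replicate 1 of day 3 was also the array with the weakest exon to intron separation of the 6, and the part of that in these differences was not tested.

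**Figure D4:**
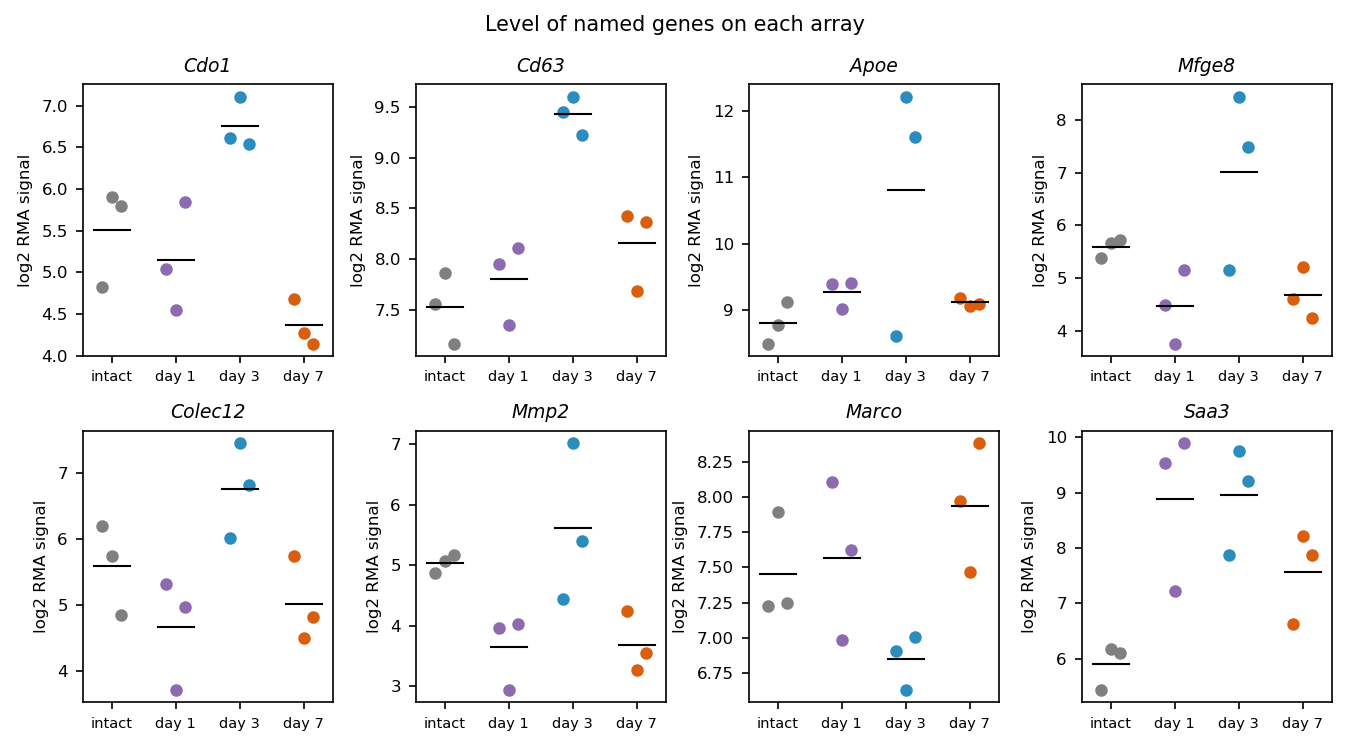
Log2 signal of 8 named genes on each of the 12 arrays (points, by group; lines are group means; each panel has its own axis, which does not start at 0). Cdo1 and Cd63 are high in all 3 day 3 arrays, Apoe and Mfge8 in 2 of them, Marco is lower at day 3 than at day 7, and Saa3 overlaps between the days.

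Markers of both alveolar epithelial cell types had lower medians at day 7, nearer to 0 without the same array. Of 17 type 1 alveolar cell markers, 16 were lower with a median of -0.45, and their summed signals spanned 758 to 1613 on the day 3 arrays and 526 to 902 on those of day 7. The median was -0.15 without replicate 1 of day 3 and -0.85 without replicate 2 of day 7. Cldn18, an alveolar tight junction protein, stood at 7.87, 4.84 and 5.80 against 5.34, 6.61 and 5.26, highest in that array. Of 19 type 2 alveolar cell markers, 15 were lower with a median of -0.29, which was -0.04 without the same array. The surfactant gene Sftpc overlapped at 9.97, 9.23 and 9.36 against 9.15, 9.96 and 8.95. Sftpd, a surfactant collectin, was the clearest member, at 3.67, 3.16 and 3.46 against 2.59, 2.54 and 2.49, but below background on both days. Vegfa, an endothelial growth factor, was lower by 1.07 ± 0.43 without overlap. Endothelial markers had a median of -0.11, which turned to 0.26 without replicate 1 of day 3, and fibroblast markers one of 0.01.

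Interferon-gamma GTPases, which attack the vacuoles of intracellular pathogens, were lower for 12 of 15 with a median of -0.42. That median was 0.01 without replicate 1 of day 3, so its sign turned on 1 array. Iigp1 stood at 5.84, 3.35 and 3.56 against 3.20, 3.65 and 3.04, and Gbp3 at 7.09, 6.07 and 5.92 against 5.95, 5.84 and 5.79, both highest in that array. Type I interferon response genes had a median of -0.14, with 20 of 31 lower, and -0.27 to 0.0047 when any 1 array was left out. Ifit3 and Mx2 were lower by 0.90 ± 0.33 and 0.83 ± 0.34 without overlap, both at levels below background. The difference of Ifit3 was -0.59 without replicate 1 of day 3.

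Inflammatory genes differed little. All 17 measured NF-kB subunits and inhibitors had a higher mean at day 7 (47.9% of all probe sets did). The median, however, was 0.16 (0.14 to 0.25 when any 1 array was left out). Of the 17, 1 had an unadjusted p under 0.05 in the higher direction (5.88%, against 2.03% of all probe sets). That was Nfkbiz, an inducible NF-kB cofactor, at 9.03, 8.46 and 8.95 against 9.09, 9.55 and 9.41. Tnf stood at 10.18, 9.58 and 10.65 against 10.95, 10.91 and 10.68, just free of overlap and higher by 0.71 ± 0.26, or by 0.43 without replicate 2 of day 3. Il1b was 10.09 ± 0.14 (SD, n = 3) against 10.50 ± 0.24, a difference of 0.41 ± 0.25 that was 0.27 without replicate 2 of day 7. Il6 overlapped widely, at 9.13, 7.80 and 7.81 against 9.43, 7.17 and 7.48. Tlr4, the endotoxin receptor, was higher by 0.45 ± 0.15 without overlap, at 7.22, 6.98 and 7.09 against 7.66, 7.55 and 7.43. Saa3, an acute phase protein that macrophages make, stood at 7.88, 9.75 and 9.21 against 6.63, 8.21 and 7.88, lower by 1.38 ± 0.66 with overlap, and at 5.91 in intact mice. Without replicate 1 of day 7 the difference of Saa3 was -0.91.

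Genes tied to liver regeneration were lower for 24 of 33 with a median of -0.13, which was -0.22 to -0.03 when any 1 array was left out. Hgf, the hepatocyte mitogen, stood at 5.24, 5.85 and 5.09 against 4.94, 4.84 and 4.43, without overlap. It was lower by 0.65 ± 0.34 (unadjusted p = 0.0793), with a difference of -0.43 without replicate 2 of day 3. Of these Hgf values, only that of replicate 2 of day 3 was above background. Ereg, an EGF receptor ligand, went the other way at 6.90, 6.0 and 6.19 against 7.14, 7.19 and 7.57, higher by 0.94 ± 0.32. None of these passed after adjustment.

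**Figure D5:**
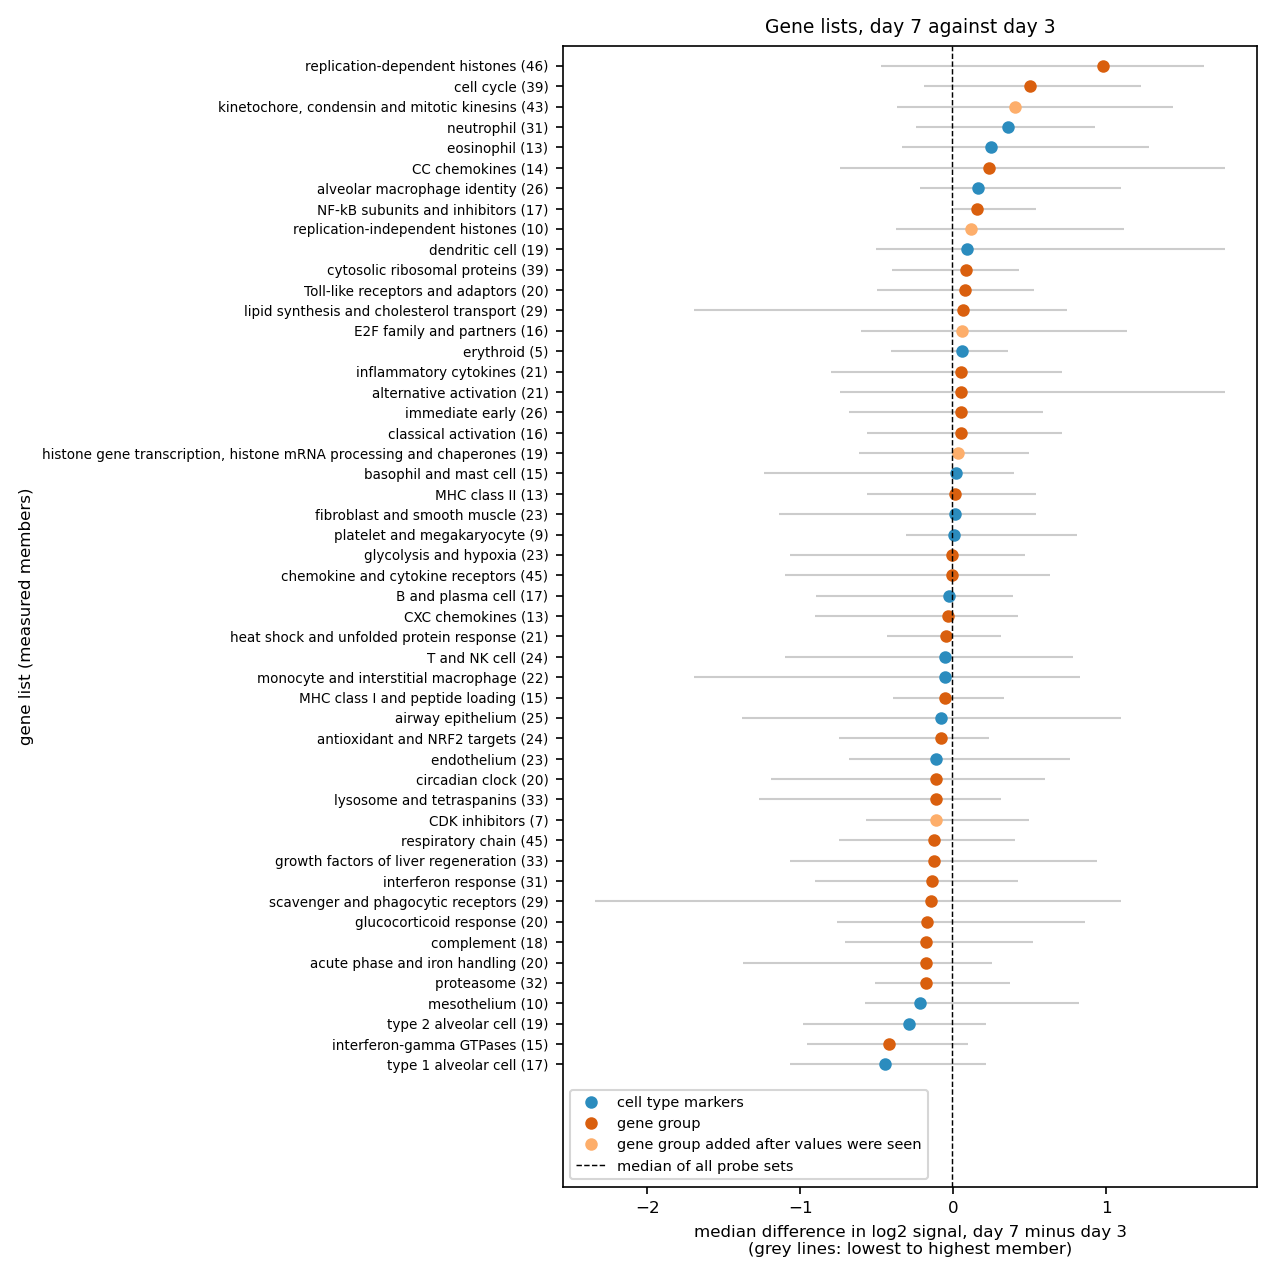
Median difference in log2 signal, day 7 minus day 3, of each of the 50 gene lists (points, coloured by kind of list; grey lines run from the lowest to the highest member; the dashed line is the median of all probe sets, -0.01). Replication-dependent histones lie at 0.98, cell cycle genes at 0.50 and type 1 alveolar cell markers at -0.45, and most lists lie within 0.2 of 0.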

How the data were processed

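RNA of Siglec-F bead-sorted alveolar macrophages was hybridised to Clariom S mouse arrays. The authors deposited 1 log2 value for each probe set and array, with RMA and the Transcriptome Analysis Console named in the submitters' processing notes; versions and genome build are not given in the sources used here, and the scale was read from the values. Of 28846 probe sets, 6640 controls (1324 exon and 5222 intron among them) were left out; 19572 of the remaining 22206 had exactly 1 gene symbol in GEO's platform annotation.

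The contrast was fitted with limma 3.58.1 (R 4.3.3) over all 12 arrays in 4 groups of 3, group as the only term, two-sided, with Benjamini-Hochberg adjustment and a threshold of 0.05. An exact test of 3 against 3 arrays cannot go below p = 0.1, so limma's spread, shared over the 4 groups and moderated across probe sets, carries the p-values. The number of arrays limits the precision. The fit was tested on simulated data.

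Genes were named by rule: the 15 smallest p each way among genes with 1 symbol, no overlap and a level above background, without predicted genes, chemosensory receptors, small RNAs and receptor segments; up to 4 members of each of 45 lists (1138 entries, 1036 measured) with the smallest p; and a fixed set of marker genes. A gene's probe set is that of highest mean. A further 5 lists (99 entries, 95 measured) were added. Other histone and cell cycle list members, and other list members, were described beyond this rule to give each list's range. The comparison, members and lists were chosen with earlier results of these data known. Promoter sequences come from RefSeq's table (GRCm38.p6), matched by symbol. Alternatives were other moderation, filters, scalings, array weights, a replicate block, each array left out, arrays split by the labelling control or by control separation, and probe set choices.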

Additional observations from a re-analysis of the deposited data

Results flagged for a closer look

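The labelling control dap, a bacterial transcript that the report's comparison does not use, gave signals well above those of the intact arrays in 3 of the 6 arrays. It stood at 6.88 in replicate 1 of day 3, at 7.77 in replicate 2 of day 7 and at 6.47 in replicate 3 of day 7, against at most 2.40 in the intact arrays. Its part in the differences between the days was not tested beyond the values given within each set of arrays.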

How the results depend on the processing

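The count of probe sets past the threshold was 0 with the settings used and 0 in most alternatives. It was 7 with array weights (4 higher: H2ac10, H4c11, H1f3 and Kif15; 3 lower: Cdo1, Bpifa1 and Mfge8), 4 without the 3 arrays of weak control separation (Prok2 higher; Apoe, Mfge8 and Sdc1 lower), 2 within the arrays that carried dap (Col4a3 and Vegfd, lower), where day 3 is replicate 1 alone, the weakest in control separation of the 6, assumed to vary like the other groups, and 1 when only the 2 weakly separating arrays of these days were left out (Apoe, lower), an alternative chosen after seeing the data. Leaving out 1 array gave 0 to 3. The adjusted p ranged over the alternatives from 0.0385 to 0.659 for H2ac10 and from 0.0316 to 0.7 for Cdo1. At an unadjusted p under 0.05 the count of 1138 became 2326 with array weights, 250 and 368 with filters on dim probe sets, which test fewer sets, 2297 within the arrays that carried dap, and 893 to 1649 when 1 array was left out; the cause of the others was not tested. Same-numbered replicates of the days correlated at -0.241, -0.115 and -0.037, so the numbers were not taken to pair samples; with the replicate block 0 probe sets passed and 1125 had an unadjusted p under 0.05, and it changed no call. The histone median stayed between 0.82 and 1.16 over all settings. Of 50 list medians, 39 turned sign under some setting, and 4 of these were beyond 0.2 with the settings used: eosinophil, type 2 alveolar, interferon-gamma GTPase and CC chemokine lists. Of 198 named genes, 38 turned sign in at least 1 alternative, and none of the 30 leading ones.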

Other observations

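Genes of the protein-degrading proteasome were lower at day 7 for 23 of 32 measured, with a median of -0.18, which turned to 0.02 without replicate 2 of day 7. Psmc6 and Psma3, subunits of its cap and core, were lower by 0.40 ± 0.17 and 0.51 ± 0.24 without overlap between the days, and the difference of Psmc6 was -0.22 without replicate 1 of day 3. Respiratory chain subunits had a median of -0.13, with 29 of 45 lower, but the median was 0.12 without replicate 2 of day 7 and above 0 within the arrays that carried dap (0.165) and within the others (0.0271). Ndufv2 of complex I was lower by 0.75 ± 0.30, with a difference of -0.47 without replicate 2 of day 7. Cytosolic ribosomal protein genes had a median of 0.08 and none had an unadjusted p under 0.05.

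Among surface receptors, Il7r, the IL-7 receptor, stood at 6.27, 7.05 and 6.70 at day 3 and at 5.60, 5.43 and 5.70 at day 7, lower by 1.10 ± 0.35 without overlap. Ifnar2, a chain of the type I interferon receptor, was lower by 0.56 ± 0.20 without overlap. Hpgds, the enzyme that makes prostaglandin D2, was lower by 1.24 ± 0.29, at 4.72, 5.66 and 5.05 against 4.58, 3.50 and 3.64. Both its means were below background. Arntl, the clock gene that encodes BMAL1, was lower by 1.19 ± 0.45 without overlap, at levels below background. Tsc22d3, a glucocorticoid-induced gene, was lower by 0.76 ± 0.31 without overlap, while Fkbp5, another, differed by -0.15 ± 0.34. Ccl22, a chemokine for regulatory T cells, overlapped at 4.95, 4.30 and 6.73 against 8.61, 6.61 and 6.09, and its difference of 1.78 was 1.02 without replicate 1 of day 7. Prok2, a secreted prokineticin chosen after its values were seen, stood at 6.21, 3.97 and 3.90 against 6.63, 5.32 and 5.69.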
